A study of Mus musculus with 46 samples.

Results

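Ribosome footprints of Ctu1-deficient and control EPP2 cells in solvent (DMSO) were compared across all listed genes, to ask which gene programs besides the ribosomal proteins gained or lost footprints. EPP2 is a murine pancreatic cancer cell line. The comparison used 11 of the 46 libraries of the study, 6 of control and 5 of Ctu1 inducible knockout (Ctu1 iKO) cells, chosen by assay, genotype and treatment alone, and 10397 gene symbols that each stood on a single entry. The study screened in a clone grown from a single EPP2 cell with doxycycline-inducible Cas9. Whether the cells of both groups here came from that clone was not given. Ctu1 iKO cells carried a pair of guide RNAs against Ctu1 and were induced with 300 ng/ml doxycycline for 4 days. The controls of the study were cells with guide pairs to non-coding regions or cells that received no doxycycline. Which of these a control library came from was not given. Where controls received no doxycycline, effects of doxycycline and of Cas9 cutting cannot be told apart from those of Ctu1 loss. All cells received DMSO for 2 h before lysis. Replicates are numbered in the labels, and the study calls the footprint data independent experiments, while its methods describe a pair of biologically independent replicates on consecutive days. Which libraries these are was not given, and the p-values measure the spread between these libraries.

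Ctu1 and its partner Ctu2 attach sulphur to the wobble uridine, position U34, of the tRNAs that read the A-ending codons of lysine, glutamine and glutamate (AAA, CAA and GAA). Elongator, the Elp complex, places the carboxymethyl-type side group on the same base. Without these groups the tRNAs pair less well with their codons, and ribosomes can dwell there. Ribosome footprinting sequences the mRNA stretch covered by each ribosome, so the footprints of a gene follow both the amount of its mRNA and how many ribosomes sit on it. In bulk libraries a smaller number of cells of a type and less RNA per cell cannot be told apart.

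The guides are shown because their position decides what the Ctu1 reads can report. The study lists 2 guide pairs against Ctu1, and which pair these cells carried was not given. Each guide is printed 5′ to 3′ in lower case, followed in capitals by the 3 genomic bases next to it (the PAM that Cas9 needs).
Ctu1 dsgRNA1, guide 1: gcacgtgtgccagcactgTGG
Ctu1 dsgRNA1, guide 2: gtaggccacgatggtgagCGG
Ctu1 dsgRNA2, guide 1: gtggagtccttgccaccagAGG
Ctu1 dsgRNA2, guide 2: gtggcctacgaagatctcttCGG
In the GRCm38 genome they match chr7:43675332-43675349 (minus strand), chr7:43675475-43675492 (minus strand), chr7:43675314-43675332 (minus strand) and chr7:43675484-43675503 (plus strand). All 4 sites lie in coding exon 2 of Ctu1, a plus-strand gene at chr7:43672016-43678298. Cuts there can leave a transcript that is still read outside the edited stretch, so the reads of Ctu1 check the labels only in part.

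Ctu1 itself was covered thinly. Its footprint CPM (counts per 1000000 footprints of the library) ran from 1.58 through a median of 2.52 to 3.43 in the controls and were 1.48, 1.30, 2.28, 1.74 and 2.13 in Ctu1 iKO replicates 1 to 5. The groups overlapped, with means of 2.53 ± 0.650 (SD, n = 6) and 1.79 ± 0.416 (SD, n = 5), and the mean was 29.4% lower in Ctu1 iKO (two-sided exact permutation test p = 0.0563, smallest possible 0.00216). The exact permutation test gave p = 0.0159 without control replicate 1 and p = 0.0476 without Ctu1 iKO replicate 3. In the RNA-seq libraries Ctu1 stood at 4.64 ± 0.347 CPM (SD, n = 6) and 4.05 ± 0.822 CPM (SD, n = 5; exact permutation test p = 0.180), with replicates 4 and 5 lowest at 3.28 and 3.10 CPM. Replicates 1 to 3 alone averaged 4.63 ± 0.302 CPM (SD, n = 3), a difference of -0.011 CPM from the controls (exact permutation test p = 1, smallest possible 0.0119).

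Total footprint counts ran from 18067298 to 52907878 in the control libraries and from 10828447 to 34565506 in Ctu1 iKO, and every entry held at least 100 footprints in at least 1 library. As a check of the treatment labels, each library was placed on the line from the control DMSO mean (position 0) to the control torin 1 mean (position 1; torin 1 inhibits the growth kinase mTOR) over 9857 genes. Control DMSO footprints lay between -0.209 and 0.101, Ctu1 iKO DMSO footprints between 0.236 and 0.372, and torin 1 footprints between 0.934 and 1.37. In RNA-seq, replicates 4 and 5 labelled as Ctu1 iKO in DMSO lay at 1.78 and 1.70, while replicates 1 to 3 lay between 0.602 and 0.647, and replicates 5 and 6 labelled as Ctu1 iKO with torin 1 lay at 0.622 and 0.725, beside 1.67 to 1.90 for its replicates 1 to 4. Replicates 5 and 6 labelled as control with torin 1 lay at 0.679 and 0.672. Whether RNA libraries were exchanged between treatments was not tested. RNA results are therefore given without Ctu1 iKO DMSO replicates 4 and 5 and, where it matters, with them, and the values with them rest on these labels. Of 15 ductal pancreatic markers, 9 were listed, with summed footprints of 3420 to 4467 CPM in the controls and 3488 to 4835 CPM in Ctu1 iKO. None of 24 acinar and endocrine markers was listed, and only Cd68 and Cd14 of 18 immune and endothelial markers were, with summed levels of 3.70 to 5.92 CPM and 4.13 to 10.7 CPM. Of 15 fibroblast markers, 11 were listed (781.5 to 1401 CPM in the controls and 679.2 to 1584 CPM in Ctu1 iKO).

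Footprints of 277 genes, 2.66% of those tested, differed between Ctu1 iKO and control cells (edgeR's quasi-likelihood test, Benjamini-Hochberg adjusted p under 0.05). Footprints rose for 169 genes (1.63%) and fell for 108 (1.04%), with median log2 changes of 0.59 and -0.52 among them, so 61% of the calls were increases. Scaling by library totals alone moved this to 218 increases and 80 decreases (73.2% increases, with the median of all genes shifted by 0.039). Most changes were small: 34 of the increases and 3 of the decreases exceeded 2-fold. The groups did not overlap for 231 of the 277 genes, and among all genes they did not overlap in 2.35% (higher in Ctu1 iKO) and 2.14% (lower). With a term that separated replicates 1 and 2 from 3 to 6 the calls were 380 higher (3.65%) and 357 lower (3.43%). Leaving out single libraries gave between 144 and 285 calls. The count was 175, 144, 161, 157 and 170 without control replicates 2, 3, 4, 5 and 6, and 154 and 164 without Ctu1 iKO replicates 3 and 5. In all 11 of these fits 116 genes were called (75 higher, 41 lower). Of the 277 genes, 93 belonged to the 54 lists of gene programs, 57 with increases and 36 with decreases. Over all genes tested 5189 of 10397 lay above 0 and 5208 below. The list counts below are to be read beside these shares.

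**Figure D1:**
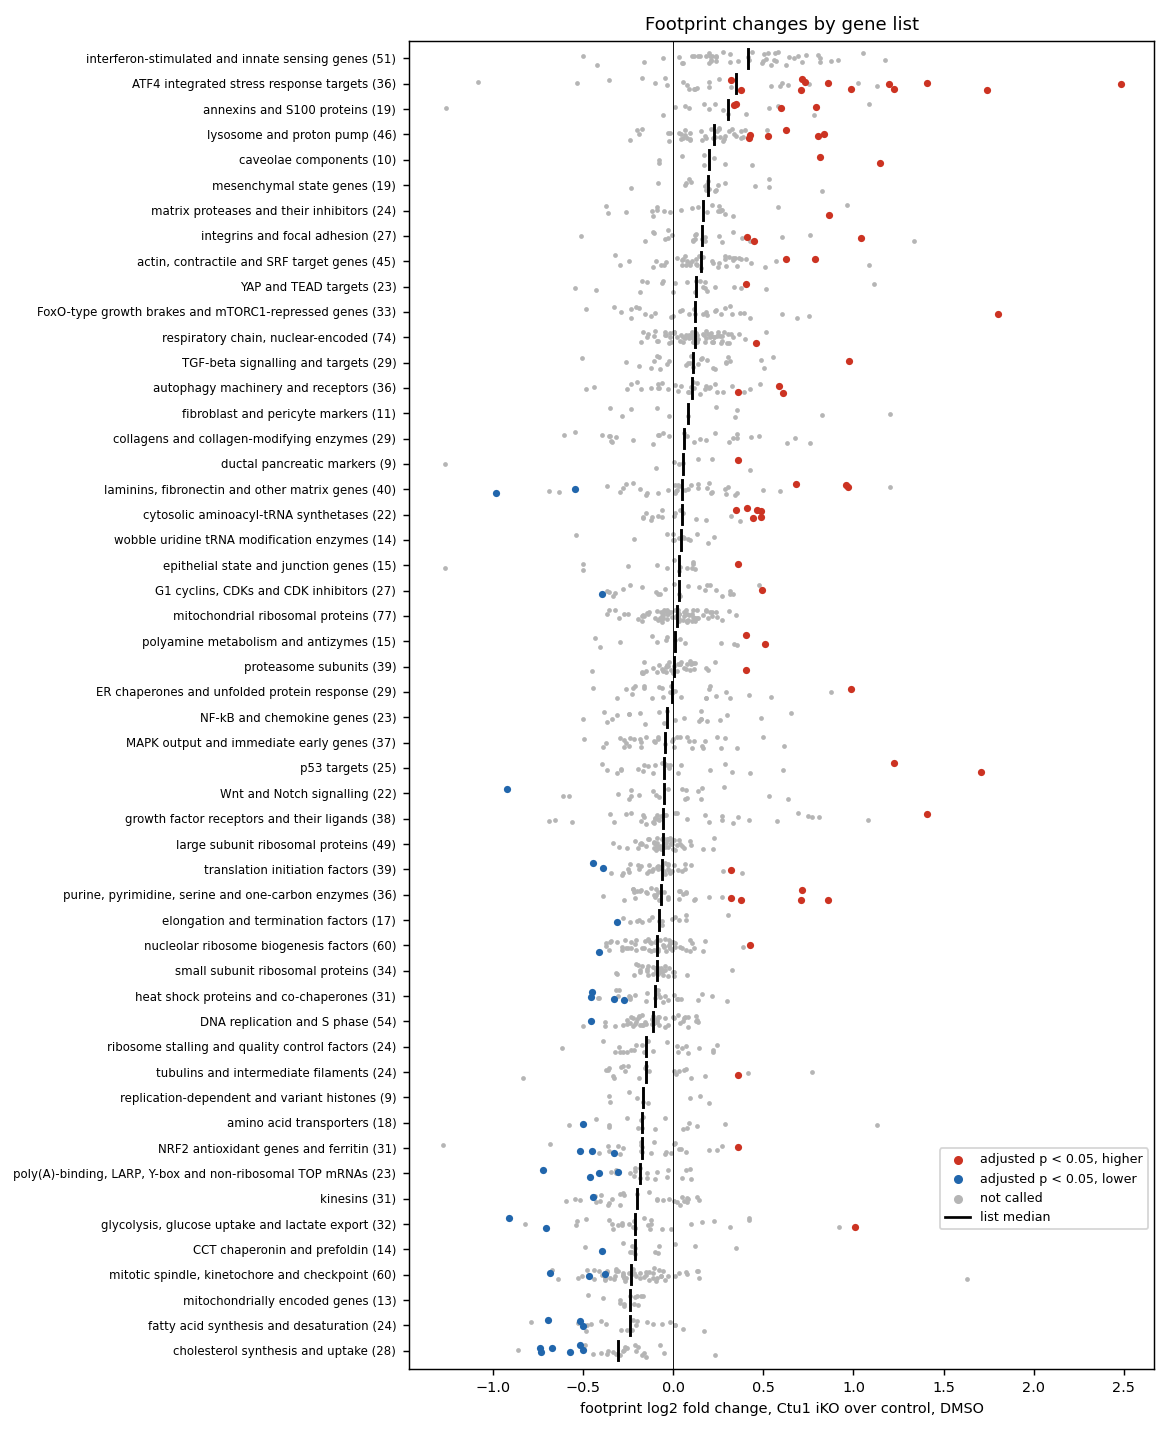
Log2 change in footprints (Ctu1 iKO against control, DMSO) for the members of each gene list with at least 8 members tested, 1 row per list and 1 point per gene. Red and blue points passed the test as higher or lower, grey points did not, and the black bar is the list's median. The ATF4 targets (12 of 36 higher, median 0.35) stand furthest to the right among lists with 6 or more calls, and the cholesterol genes (6 of 28 lower, median -0.31) to the left.

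Genes of the integrated stress response gained footprints. In this pathway, phosphorylation of the initiation factor eIF2 lowers general initiation while mRNAs with upstream reading frames, such as that of the transcription factor Atf4, are translated better, and ATF4 then switches on genes for amino acid supply, tRNA charging and stress feedback. Of 36 ATF4 pathway genes tested, 12 rose (33.3%, beside 1.63% of all genes) and none fell. Log2 changes lay above 0 for 29 of them, beside 5189 of 10397 over all genes. The list's median was 0.35 beside -0.00043 for all genes. Its mean log2(CPM + 1) lay between 4.91 and 5.11 in the 6 controls and at 5.64, 5.53, 5.58, 5.51 and 5.37 in Ctu1 iKO replicates 1 to 5, so no Ctu1 iKO library reached down to the controls. The median became 0.50 without control replicate 3, and 9 to 12 members were called whichever single library was left out.

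Among the regulators, Atf4 itself stood at 81.8, 94.6 and 105 CPM (lowest, median and highest control) and at 211, 167, 171, 209 and 174 CPM in Ctu1 iKO replicates 1 to 5. Every Ctu1 iKO library exceeded every control, and the log2 change was 0.99 (SE 0.10, adjusted p = 0.00027). Atf5, a related transcription factor whose mRNA also carries upstream reading frames, ran from 21.9 through 30.9 to 44.4 CPM in the controls and was 120, 127, 107, 113 and 81.8 CPM in Ctu1 iKO. Its log2 change was 1.74 (SE 0.19, adjusted p = 0.0004). Ddit3 (CHOP), the stress transcription factor downstream of ATF4, rose from 1.34 to 5.16 CPM in the controls to 6.83 to 12.5 CPM, a log2 change of 1.41 (SE 0.30, adjusted p = 0.0256), and was lost in 4 of the 11 fits without 1 library, at most at adjusted p = 0.0680 without Ctu1 iKO replicate 4. Trib3, a pseudokinase that feeds back on ATF4, rose by a log2 change of 1.20 (SE 0.17, adjusted p = 0.00347), and Sesn2, a leucine-sensing inhibitor of mTORC1, by 1.23 (SE 0.19, adjusted p = 0.004).

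Chac1, which degrades glutathione, had the largest change of the list. It was barely covered in the controls, at 0.837, 1.55 and 1.87 CPM (lowest, median and highest), and stood at 9.56, 7.47, 10.2, 8.31 and 5.76 CPM in Ctu1 iKO. The log2 change was 2.48 (SE 0.25, adjusted p = 0.00027). Every listed entry held at least 100 footprints in at least 1 library. A gene this thin in the controls can thus be listed through Ctu1 iKO alone. Asns, asparagine synthetase, was well covered, with 255, 298 and 367 CPM in the controls and 435, 450, 520, 606 and 511 CPM in Ctu1 iKO, and rose by 0.71 (SE 0.11, adjusted p = 0.00462). The proline enzyme Pycr1 rose by 0.86 (adjusted p = 0.0108), the cysteine enzyme Cth by 0.73 (adjusted p = 0.0132) and the last enzyme of serine synthesis, Psph, by 0.72 (adjusted p = 0.00393). The 2 other enzymes of serine synthesis changed less: Psat1 rose by 0.38 (adjusted p = 0.0375, lost in 8 of 11 fits, at most 0.0885 without Ctu1 iKO replicate 5) and Phgdh by 0.32 (adjusted p = 0.0365, lost in 9, at most 0.0852 without Ctu1 iKO replicate 3). The list of purine, pyrimidine, serine and one-carbon enzymes had 5 of 36 members called, and all 5 (Asns, Phgdh, Psat1, Psph and Pycr1) are also in the ATF4 list.

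Not every ATF4 pathway gene followed. The heavy chain of amino acid exchangers Slc3a2 stood at a log2 change of 0.13 (adjusted p = 0.519), and the mitochondrial serine enzyme Shmt2 at 0.12 (adjusted p = 0.475). The eIF2 phosphatase subunit Ppp1r15a stood at -0.035 (adjusted p = 0.974) and the cystine transporter Slc7a11 at -0.17 (adjusted p = 0.307). Chosen after its values were seen, the glutamine transporter Slc38a2 stood at 137 to 193 CPM in the controls and 161, 150, 108, 110 and 117 CPM in Ctu1 iKO (log2 change -0.36, adjusted p = 0.149), and it passed as lower in replicates 3 to 6 alone (adjusted p = 0.0424). The lowest member, Gdf15, was thinly covered (-1.08, SE 1.104, adjusted p = 0.665). Of 18 amino acid transporters, none rose and 1 fell, the taurine transporter Slc6a6 (log2 change -0.50, adjusted p = 0.0344), whose groups overlapped and whose call was lost in 7 of 11 fits (at most 0.0856 without Ctu1 iKO replicate 5). Of the unfolded protein response and ER chaperone genes, 1 of 29 was called, Herpud1, a component of ER-associated degradation, at 29.5 to 50.6 CPM in the controls and 96.4, 94.9, 67.9, 81.6 and 65.2 CPM in Ctu1 iKO (log2 change 0.99, SE 0.15, adjusted p = 0.00439). The remaining members of that list lay on both sides of 0, with 14 genes above and 15 below in all. Of 25 p53 targets, the 2 that rose were Sesn2 and Gadd45a, a growth arrest gene that other stress pathways use too. Gadd45a stood at 1.77 to 3.54 CPM in the controls and at 8.93, 10.1, 10.9, 8.93 and 8.57 CPM in Ctu1 iKO (log2 change 1.71, SE 0.19, adjusted p = 0.00058).

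Genes that charge tRNAs moved in part. Aminoacyl-tRNA synthetases join each amino acid to its tRNA, and several are ATF4 targets. Of 22 cytosolic synthetases tested, 6 rose (27.3%, beside 1.63% of all genes) and none fell, with a median of 0.046 (0.025 to 0.089 without single libraries). Nars (asparagine), the most covered of the 6, ran from 1028 through 1266 to 1342 CPM in the controls and stood at 1902, 1705, 1532, 1782 and 1553 CPM in Ctu1 iKO (log2 change 0.49, SE 0.09, adjusted p = 0.0154). Aars (alanine) stood at 154 to 178 CPM in the controls and 214 to 235 CPM in Ctu1 iKO, a log2 change of 0.44 (SE 0.07, adjusted p = 0.00637). Tars (threonine, 0.49) and Sars (serine, 0.46) rose by similar amounts, and for these 4 the groups did not overlap and no fit without 1 library lost the call. Gars (glycine, 0.41) and Wars (tryptophan, 0.35) were each lost in 8 of 11 fits, at most at adjusted p = 0.0763 and 0.0843 without Ctu1 iKO replicate 5. Eprs, which charges glutamate and proline, stood at -0.12 (adjusted p = 0.474).

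The amino acid response motif, the letters TGATGNAAN that ATF4 and its partners are known to bind, was searched on both strands in the 250 bases before each gene's start (RefSeq promoters, GRCm38.p6). It occurred in 3.44% of 32851 promoters and in 193 of 8245 tested genes with a promoter (2.34%). Of 136 genes with increased footprints and a promoter it occurred in 13 (9.56%), and of 80 genes with decreased footprints in 0. Matches of 6 genes from the programs above are shown 5′ to 3′ on the gene's strand with 10 bases on each side where the window allows, with the motif or its reverse complement in capitals.
Chac1: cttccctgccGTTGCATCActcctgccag
Herpud1: accacggcggGTTGCATCAgcccgcaccc
Pycr1: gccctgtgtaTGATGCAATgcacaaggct
Asns: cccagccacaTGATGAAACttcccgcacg
Gars: tggctgcgctATTTCATCAtgcaccgggc
Tars: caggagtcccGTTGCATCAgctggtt
They begin 194, 113, 103, 23, 31 and 16 bases before the start site and lie at chr2:119351038-119351066, chr8:94386306-94386334, chr11:120643833-120643861, chr6:7693214-7693242, chr6:55037960-55037988 and chr15:11399659-11399684, on the plus strand for Chac1, Herpud1 and Gars and on the minus strand for Pycr1, Asns and Tars. The 13 matches also include Atp6v0d1, Fbln5, Lamtor4, Myzap, Plscr1 and Serpinf1, named after their values were seen. The genes shown were taken from those that rose. Of 32 ATF4 list genes with a promoter, 7 held the letters and 3 of these 7 rose, while Slc7a11 held them and did not pass. A match describes the letters only.

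Ibtk, which encodes an adaptor of a ubiquitin ligase and whose mRNA also carries upstream reading frames, rose in footprints more than in its RNA. Its footprints stood at 8.07, 10.1 and 11.5 CPM (lowest, median and highest control) and at 26.5, 23.8, 23.5, 28.5 and 30.7 CPM in Ctu1 iKO, a log2 change of 1.42 (SE 0.12, adjusted p = 6.7e-05). Its RNA rose by 0.26 without the RNA libraries labelled Ctu1 iKO replicates 4 and 5 (adjusted p = 0.0123).

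**Figure D2:**
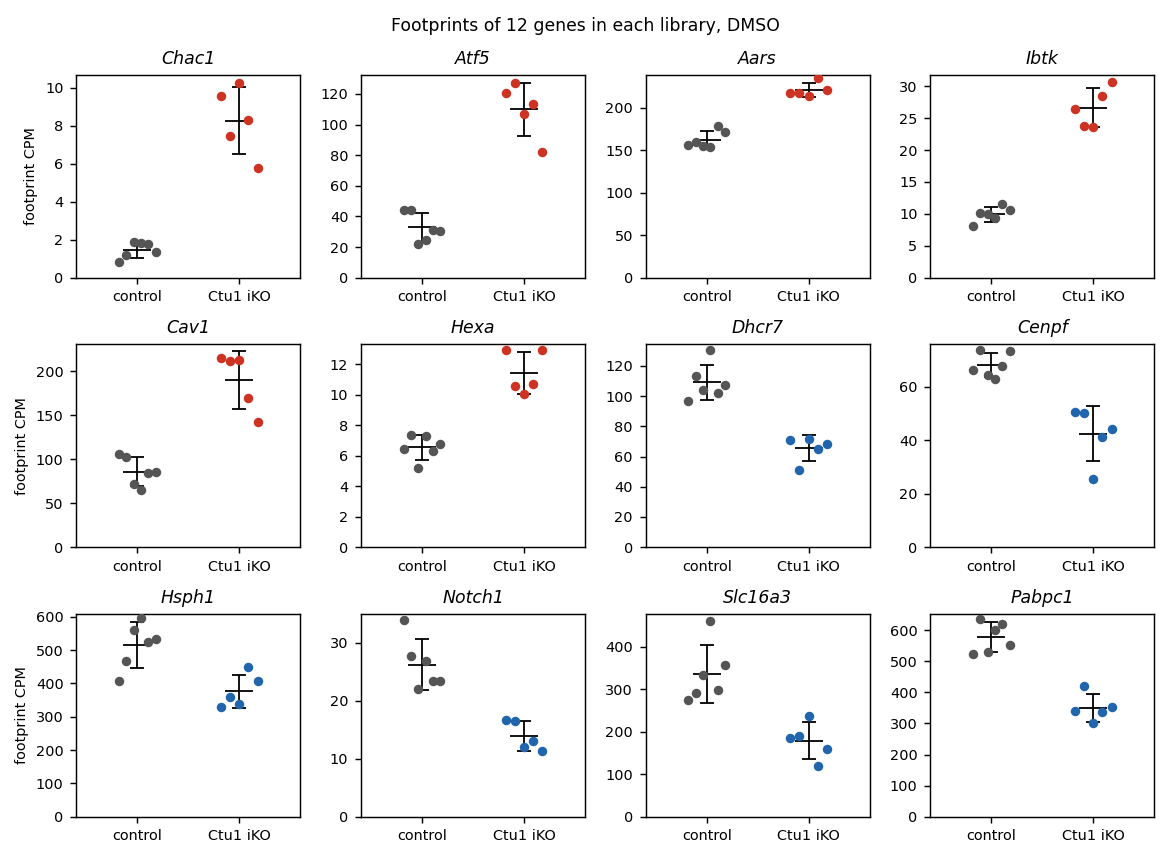
Footprint CPM in every library for 12 genes, with controls and Ctu1 iKO side by side and bars for the group mean ± SD (n = 6 and 5). Chac1, Atf5, Aars, Ibtk, Cav1 and Hexa are higher and Dhcr7, Cenpf, Notch1, Slc16a3 and Pabpc1 lower in every Ctu1 iKO library than in any control, while the groups of Hsph1 overlap.

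Genes of the lysosome gained footprints. The lysosome is the acidic organelle that breaks down macromolecules, and many of its genes share a CACGTG-type element. Of 46 lysosomal and proton pump genes tested, 6 rose (13%, beside 1.63% of all genes) and none fell. Log2 changes lay above 0 for 39 of them, beside 5189 of 10397 over all genes, and the median was 0.23. Grn, the progranulin precursor, had 170, 207 and 235 CPM in the controls and 334, 301, 308, 299 and 334 CPM in Ctu1 iKO (log2 change 0.63, SE 0.09, adjusted p = 0.00245). Hexa, the alpha subunit of hexosaminidase, had 5.19 to 7.36 CPM in the controls and 10.0 to 13 CPM in Ctu1 iKO (log2 change 0.80, SE 0.14, adjusted p = 0.0104). Atp6v1b2, a subunit of the proton pump, rose by 0.53 (SE 0.10, adjusted p = 0.0174). These 3 kept their calls in every fit without 1 library. The membrane protein Lamp1 (0.42), the protease Ctsb (0.42) and the pump subunit Atp6v0d1 (0.84) were lost in 10, 6 and 7 of 11 fits, at most at adjusted p = 0.114, 0.0762 and 0.0780, each without Ctu1 iKO replicate 5. The most covered members, the protease Ctsl (log2 change 0.27, adjusted p = 0.0829) and the tetraspanin Cd63 (0.29, adjusted p = 0.125), did not pass. The list's mean log2(CPM + 1) lay between 5.62 and 5.80 in the controls and at 6.03, 5.92, 5.81, 5.92 and 6.03 in Ctu1 iKO, and 3 to 5 members were called whichever single library was left out, with 3 without control replicates 2, 3, 4 or 5 or Ctu1 iKO replicate 5.

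The CACGTG letters were found in the 250 bases before the start of 11 of 34 lysosomal genes with a promoter, beside 860 of 8245 tested genes (10.4%) and 6.02% of all promoters. Of the 4 lysosomal genes that rose and had a promoter, 1 held them (Lamp1). One of the matches before Lamp1 is shown with the letters in capitals, at chr8:13159090-13159115 on the plus strand, 61 bases before its start.
Lamp1: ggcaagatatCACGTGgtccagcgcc
Among genes with increased footprints 11 of 136 held these letters, and among those with decreased footprints 7 of 80.

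Of 36 autophagy genes 3 rose (8.33%, beside 1.63% of all genes) and none fell (24 above 0, median 0.10, or 0.062 without Ctu1 iKO replicate 4). The 3 were Gabarap and Map1lc3b, which coat the forming autophagosome, and the cargo receptor Sqstm1 (p62). Gabarap stood at 49.6 to 68.1 CPM in the controls and at 82.0, 85.2, 75.8, 109 and 95.3 CPM in Ctu1 iKO, a log2 change of 0.61 (SE 0.12, adjusted p = 0.017). Map1lc3b (0.58, adjusted p = 0.0331, groups overlapping) was lost in 7 of 11 fits, at most at 0.0780 without control replicate 3, and Sqstm1 (0.36, adjusted p = 0.0374) in 9, at most at 0.0809 without Ctu1 iKO replicate 2. Of 15 genes of polyamine metabolism, the polyamine-degrading enzyme Sat1 (0.51, adjusted p = 0.0451, lost in 10 of 11 fits, at most 0.109 without Ctu1 iKO replicate 5) and the antizyme inhibitor Azin1 (0.40, adjusted p = 0.0342, lost in 8, at most 0.0856 without the same library) rose.

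Genes outside the stress response were also among the 15 with the largest increases. This ranking took only called genes with a mean of 100 counts or more and groups that did not overlap, which leaves out Chac1. Txnip, which binds thioredoxin and lowers glucose uptake, ran from 2.53 through 4.08 to 5.77 CPM in the controls and was 15.3, 6.10, 19.1, 16.4 and 13.6 CPM in Ctu1 iKO, with replicate 2 only just above the highest control (log2 change 1.80, SE 0.27, adjusted p = 0.00393). It was the only called member of 33 FoxO-type growth brakes and mTORC1-repressed genes, of which 21 lay above 0 (median 0.12, or 0.039 without Ctu1 iKO replicate 2 and 0.065 without control replicate 4). Ghr, the growth hormone receptor, stood at 11.4, 12.3 and 15.8 CPM in the controls and at 36.2, 37.4, 34, 31.6 and 33.9 CPM in Ctu1 iKO, the smallest adjusted p of the named genes (log2 change 1.41, SE 0.11, adjusted p = 4.5e-05). It was the only called member of 38 growth factor receptors and ligands. Pde4b, which degrades cyclic AMP, rose by 1.33 (SE 0.23, adjusted p = 0.0096) with values from 8.01 to 26.1 CPM in Ctu1 iKO beside 5.78 to 7.16 CPM in the controls. Dynap had the largest change of the 15, from 1.64 to 2.63 CPM in the controls to 4.65, 7.55, 11.4, 7.32 and 8.77 CPM (log2 change 1.95, SE 0.24, adjusted p = 0.00108). Like Chac1, Dynap was thin in the controls and can be listed through Ctu1 iKO alone. Grem1, a secreted BMP antagonist, rose by 1.15 (adjusted p = 0.0138), Fam110c by 1.22 (adjusted p = 0.00704), Atxn7l1 by 1.22 (adjusted p = 0.0122) and Myzap by 1.29 (adjusted p = 0.0224), the last lost in 4 of 11 fits (at most 0.0589 without Ctu1 iKO replicate 5).

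Of 10 caveolae genes and 19 annexins and S100 proteins, 2 and 4 rose (20% and 21.1%), beside 1.63% of all genes. Cav1, the main coat protein of caveolae, stood at 64.9, 85.1 and 106 CPM in the controls and at 215, 212, 213, 170 and 142 CPM in Ctu1 iKO (log2 change 1.15, SE 0.15, adjusted p = 0.00128). The caveolar coat protein Cavin2 also rose (0.81, adjusted p = 0.0419), with overlapping groups, and was lost in 8 of 11 fits without 1 library (at most 0.0913 without control replicate 3). Annexins and S100 proteins bind calcium and membranes, and 4 of 19 rose, none fell and 17 lay above 0 (median 0.31). Anxa3 had 112 to 136 CPM in the controls and 205, 219, 218, 221 and 212 CPM in Ctu1 iKO (log2 change 0.79, SE 0.08, adjusted p = 0.00021). S100a11 had 187 to 211 CPM and 297, 298, 334, 295 and 294 CPM (log2 change 0.60, SE 0.07, adjusted p = 0.00097). Anxa5 (0.34) and Anxa7 (0.35) passed with adjusted p = 0.0303 and 0.0327 and were lost in 7 and 8 of 11 fits, at most at 0.0833 and 0.0857 without Ctu1 iKO replicate 5. The most covered members did not pass: S100a6 stood at 0.17 (adjusted p = 0.298), Anxa1 at 0.0094 (adjusted p = 0.974) and Anxa2 at 0.28 (adjusted p = 0.103).

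The actin and adhesion lists had most members above 0 and few calls, and with the term for replicates 1 and 2 against 3 to 6, which raised the calls over all genes too, 11 of 45 actin genes were higher and 7 of 27 adhesion genes higher and 1 lower. Of 45 actin and contractile genes 37 lay above 0 (median 0.15), and the actin binders Cnn2 (0.62, adjusted p = 0.0201) and Palld (0.78, adjusted p = 0.0306) rose with overlapping groups. Cnn2 was lost in 3 of 11 fits, at most at 0.0560 without Ctu1 iKO replicate 3, and Palld in 7, at most at 0.0711 without control replicate 4. The calls were 4.44% of the actin genes and 11.1% of the integrin and focal adhesion genes, all higher, beside 1.63% of all genes. Of 27 integrin and focal adhesion genes 3 rose. The scaffold Nedd9 led them at 6.52 to 12.2 CPM in the controls and 21.3, 14.7, 21.7, 20.1 and 20.3 CPM in Ctu1 iKO (log2 change 1.04, SE 0.17, adjusted p = 0.00628). Lpp (0.45) and Parva (0.41) were lost in 4 and 10 of 11 fits, at most at adjusted p = 0.0566 and 0.0913 without control replicate 3. Myof, a membrane repair protein, was the only call among 23 YAP targets (4.35%, beside 2.66% of all genes). It rose by 0.41 (adjusted p = 0.0198) and was lost without Ctu1 iKO replicates 3 and 5 (at most 0.0516). The mesenchymal list had 17 of 19 members above 0 (median 0.20, or 0.125 without Ctu1 iKO replicate 1) and no call, and its most covered members Vim, Cd44 and Fn1 had log2 changes of 0.099 (adjusted p = 0.665), 0.20 (adjusted p = 0.306) and 0.20 (adjusted p = 0.690).

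Matrix genes went both ways. Of 40 laminins, fibronectin and other matrix genes, 3 rose and 2 fell (12.5% called, beside 2.66% of all genes). Fbln2, a fibulin of elastic fibres, stood at 37.4 to 68.8 CPM in the controls and at 114, 84.6, 108, 73.2 and 78.6 CPM in Ctu1 iKO (log2 change 0.97, SE 0.16, adjusted p = 0.00797). Thbs2 rose by 0.96 (adjusted p = 0.0223, lost in 5 of 11 fits, at most 0.0610 without Ctu1 iKO replicate 3) and Fbln5 by 0.68 (adjusted p = 0.0472, lost in 10, at most 0.1002 without Ctu1 iKO replicate 5). The laminin chains Lama5 and Lamb1 fell. Lama5 stood at 56.6, 67.2 and 87.4 CPM in the controls and at 53.2, 43.6, 28.7, 26.5 and 25.6 CPM in Ctu1 iKO (log2 change -0.98, SE 0.20, adjusted p = 0.0201), with replicate 1 close to the lowest control, and was lost without Ctu1 iKO replicate 3 (0.0578) and replicate 5. Lamb1 fell by 0.54 on the log2 scale (adjusted p = 0.0337, lost in 8 fits, at most 0.0809 without Ctu1 iKO replicate 5). The secreted protease Htra1 rose by 0.86 (SE 0.15, adjusted p = 0.0103), the single call among 24 matrix proteases and inhibitors (4.17%, beside 2.66% of all genes). None of 29 collagen genes was called. Their median was 0.058, between -0.095 and 0.086 without single libraries, -0.16 in replicates 3 to 6 alone (3 lower) and 0.21 without Ctu1 iKO replicates 4 and 5 (2 higher). Pmepa1 (0.97, adjusted p = 0.0375, 1 of 29 TGF-beta genes) and Krt8 (0.36, adjusted p = 0.0352, 1 of 15 epithelial genes) rose too. These calls were 3.45% and 6.67% of their lists, beside 2.66% of all genes. They were lost in 7 and 9 of 11 fits, at most at 0.0837 without Ctu1 iKO replicate 3 and 0.0941 without replicate 5.

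Genes of the sterol pathway lost footprints. SREBP transcription factors drive the enzymes that build cholesterol from acetyl-CoA, together with genes of cholesterol uptake. Of 28 cholesterol synthesis and uptake genes tested, 6 fell (21.4%, beside 1.04% of all genes) and none rose. Log2 changes lay below 0 for 27 of them, beside 5208 of 10397 over all genes, with a median of -0.31. The list's mean log2(CPM + 1) lay between 6.08 and 6.21 in the controls and at 5.88, 5.72, 5.83, 5.78 and 5.76 in Ctu1 iKO, without overlap, and 5 to 8 members were called whichever single library was left out. Dhcr7, which makes cholesterol in the final step, stood at 97.1, 106 and 130 CPM (lowest, median and highest control) and at 71.2, 50.9, 71.7, 65.3 and 68.6 CPM in Ctu1 iKO (log2 change -0.73, SE 0.11, adjusted p = 0.004). Every Ctu1 iKO library was below every control. Earlier in the pathway, Sqle fell by 0.50 (adjusted p = 0.0103), Cyp51 by 0.67 (adjusted p = 0.00504) and Fdft1, the first enzyme committed to sterols, by 0.57 (adjusted p = 0.0222), the last lost in 4 of 11 fits (at most 0.0588 without Ctu1 iKO replicate 3).

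Fatty acid enzymes under the same regulators fell in part: 3 of 24 (12.5%, beside 1.04% of all genes), with none higher, 20 below 0 and a median of -0.24. Elovl6, which lengthens saturated chains, stood at 94.0 to 116 CPM in the controls and 67.0, 48.6, 71.3, 59.6 and 74.1 CPM in Ctu1 iKO (log2 change -0.70, SE 0.11, adjusted p = 0.00649). Fads2, a desaturase, fell by 0.50 (adjusted p = 0.0164) and Acsl3, which activates fatty acids, by 0.52 (adjusted p = 0.0145), and all 3 kept their calls in every fit without 1 library. Fasn, the synthase, stood at -0.48 (adjusted p = 0.0857) with overlapping groups, and the desaturases Scd2 and Scd1 had -0.37 (adjusted p = 0.157) and -0.26 (adjusted p = 0.416). The letters TCACNCCAC, a form of the sterol response element, were found in 1.05% of promoters, in 1 of 136 genes with increased footprints (Mapk6), in 0 of 80 with decreased footprints and in 1 of 20 cholesterol genes with a promoter (Hmgcs1).

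Few genes of mitosis passed. Of 60 spindle, kinetochore and checkpoint genes 52 lay below 0 (median -0.24), beside 5208 of 10397 over all genes, 3 fell (1.04% of all genes did) and none rose, and 10 fell with a term for replicates 1 and 2 against 3 to 6. The list's mean log2(CPM + 1) overlapped between groups, at 6.06 to 6.28 in the controls and 5.87, 5.89, 5.88, 6.17 and 6.10 in Ctu1 iKO. Ncapd2, a condensin subunit, had 190 to 217 CPM in the controls and 163, 157, 164, 155 and 143 CPM in Ctu1 iKO (log2 change -0.38, SE 0.07, adjusted p = 0.0159). Cenpf, a kinetochore protein, had 62.8 to 73.57 CPM and 50.7, 50.3, 25.7, 41.3 and 44.3 CPM, with replicate 3 the lowest (log2 change -0.68, SE 0.15, adjusted p = 0.0285). The checkpoint kinase Bub1b fell by 0.46 (adjusted p = 0.0274), and both Cenpf and Bub1b were lost in 6 of 11 fits, at most at 0.0612 without Ctu1 iKO replicate 4 and 0.0719 without replicate 5. Prc1, the midzone bundler, stood out for its spread, at 225, 320 and 1014 CPM in the controls (lowest, median and highest) and 187, 247, 1248, 1923 and 3123 CPM in Ctu1 iKO (log2 change 1.63, SE 0.62, adjusted p = 0.177), while its RNA changed by -0.17 without Ctu1 iKO replicates 4 and 5.

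Of 31 kinesins 21 lay below 0 (median -0.20), and the list's mean log2(CPM + 1) was 4.68 to 4.84 in the controls and 4.48, 4.56, 4.52, 4.62 and 4.65 in Ctu1 iKO, without overlap. The cytokinesis motor Kif20a was the single call and fell, from 419 to 524 CPM in the controls to 299 to 397 CPM (log2 change -0.45, SE 0.09, adjusted p = 0.0211), and was lost in 4 of 11 fits, at most at 0.0534 without Ctu1 iKO replicate 3. Cdca2, which recruits a phosphatase to chromatin at mitotic exit, was among the 15 largest decreases at 55.4 to 69.5 CPM in the controls and 20.9, 29.0, 35.6, 39.9 and 37.0 CPM in Ctu1 iKO (log2 change -0.89, SE 0.15, adjusted p = 0.00656). Of 54 replication genes 42 lay below 0 (median -0.11) and 1 was called, the chromatin assembly subunit Chaf1a (-0.46, adjusted p = 0.041, lost in 10 fits, at most 0.0883 without Ctu1 iKO replicate 4). Of 27 G1 cyclins, kinases and inhibitors, Ccnd2 rose by 0.49 (adjusted p = 0.0451, lost in 10 fits, at most 0.1001 without control replicate 3) and the ubiquitin ligase subunit Skp2 fell by 0.39 (adjusted p = 0.0475, lost in all 11, at most 0.101 without control replicate 6). The letters TTTGAA, the cell cycle homology element of mitotic genes, stood in 17 of 52 mitotic genes with a promoter, beside 12.8% of tested genes, 15.99% of all promoters and 12 of 80 genes (15%) with decreased footprints.

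The machinery of translation outside the ribosome fell in a few abundant members. Pabpc1, the poly(A)-binding protein, whose mRNA starts with the terminal oligopyrimidine (TOP) tract that makes translation depend on mTORC1, had 524, 578 and 637 CPM in the controls and 339, 422, 300, 336 and 353 CPM in Ctu1 iKO (log2 change -0.72, SE 0.10, adjusted p = 0.00186). Ybx1, a Y-box mRNA-binding protein, had 755 to 948 CPM and 707, 692, 590, 552 and 559 CPM (log2 change -0.46, SE 0.10, adjusted p = 0.0254), and was lost in 5 of 11 fits, at most at 0.0685 without Ctu1 iKO replicate 5. Npm1, the nucleolar chaperone nucleophosmin, had 5267 to 5979 CPM and 3779, 4352, 3807, 4869 and 4748 CPM (log2 change -0.41, SE 0.08, adjusted p = 0.0174). With Hnrnpa1 (-0.31, adjusted p = 0.0394, lost in 10 fits, at most 0.0881 without Ctu1 iKO replicate 5) these are the 4 calls among 23 poly(A)-binding, LARP, Y-box and other non-ribosomal TOP genes, of which none rose and 19 lay below 0 (median -0.19, or -0.27 without Ctu1 iKO replicates 4 and 5 and -0.114 without replicate 3). The list's mean log2(CPM + 1) ran from 8.90 to 9.01 in the controls and was 8.75, 8.85, 8.63, 8.82 and 8.78 in Ctu1 iKO.

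Eef1a1, the elongation factor that brings charged tRNA to the ribosome, was the single call among 17 elongation and termination factors, at 11482 to 13311 CPM in the controls and 9847 to 10783 CPM in Ctu1 iKO without overlap (log2 change -0.31, SE 0.06, adjusted p = 0.0163). Of 39 initiation factors 30 lay below 0 (median -0.063, or -0.109 without Ctu1 iKO replicate 4 and -0.105 without control replicate 2), and the 3 calls were Eif3c (0.32, adjusted p = 0.0306) and the near-identical pair Eif3j1 and Eif3j2 (-0.39 and -0.45, adjusted p = 0.0429 and 0.0427). They were lost in 8, 10 and 10 of 11 fits, at most at 0.0809 without Ctu1 iKO replicate 5 and at 0.0950 and 0.0918 without control replicate 5. Eef1a1, Npm1, Hnrnpa1, Pabpc1 and the Eif3j pair have close copies or pseudogenes that can share footprints, so their values are less certain than those of single-copy genes. Of 60 nucleolar ribosome biogenesis factors 46 lay below 0 (median -0.087, or -0.043 without Ctu1 iKO replicate 1 and -0.045 without control replicate 4), with Npm1 lower and Noc3l higher (0.43, adjusted p = 0.0406, lost in 10 fits, at most 0.115 without Ctu1 iKO replicate 5).

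Chaperones that fold newly made proteins fell in part. Of 31 heat shock proteins and co-chaperones 4 fell (12.9%, beside 1.04% of all genes), none rose and 23 lay below 0 (median -0.10). Hspd1, the mitochondrial chaperonin, had 1100 to 1465 CPM in the controls and 859, 964, 868, 979 and 976 CPM in Ctu1 iKO (log2 change -0.46, SE 0.08, adjusted p = 0.0122). The cytosolic Hsp90ab1 had 4719 to 5600 CPM and 3945, 4059, 3764, 4284 and 4103 CPM (log2 change -0.33, SE 0.07, adjusted p = 0.0204), lost without Ctu1 iKO replicate 3 (0.0563). Hsph1 (-0.45, adjusted p = 0.0483, groups overlapping) was lost in 9 of 11 fits, at most at 0.104 without Ctu1 iKO replicate 3, and Stip1 (-0.27, adjusted p = 0.0483) in all 11, at most at 0.108 without replicate 5. Of the CCT chaperonin and prefoldin, which fold actin and tubulin, 11 of 14 lay below 0 (median -0.21, or -0.139 without control replicate 4) and Cct2 fell by 0.39 (SE 0.08, adjusted p = 0.0163).

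Single members of metabolism and signalling lists also fell. Slc16a3 (MCT4), which exports lactate, had 275, 316 and 461 CPM in the controls and 186, 191, 237, 120 and 159 CPM in Ctu1 iKO (log2 change -0.91, SE 0.17, adjusted p = 0.0128). With the carbonic anhydrase Car12 (-0.70, SE 0.14, adjusted p = 0.0178) it was called among 32 glycolysis and lactate genes, of which 24 lay below 0 (median -0.21). The third call, Gapdh, rose by 1.01 (adjusted p = 0.0102), but at 35.4 to 70.5 CPM in the controls this entry was thinly covered for such an abundant enzyme, and Gapdh has many processed copies. Notch1, a receptor of cell-cell signalling, had 22.1 to 33.9 CPM in the controls and 16.8, 16.5, 12.1, 13 and 11.3 CPM in Ctu1 iKO (log2 change -0.92, SE 0.15, adjusted p = 0.00586), the single call among 22 Wnt and Notch genes. Of 31 NRF2 and ferritin genes, Sqstm1 rose, and Abcc4 (-0.52), Abcc1 (-0.45) and Tkt (-0.33) fell with adjusted p = 0.0306, 0.0427 and 0.0472, each lost in 8 to 10 fits (at most 0.120, Tkt without Ctu1 iKO replicate 5). Among the 15 largest decreases were also the adhesion molecule Igsf9 (8.27 to 11.4 CPM in the controls and 2.28 to 7.14 CPM in Ctu1 iKO, log2 change -1.25, SE 0.25, adjusted p = 0.0174), Gpsm1 (-1.10), Cep57l1 (-0.99), Tex9 (-0.88), Spindoc (-0.82), Pitpnm1 (-0.78) and the corepressor Rcor2 (-0.77). Of these, Tex9 was lost in 3 of 11 fits (at most 0.0665 without Ctu1 iKO replicate 3).

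Other programs had no call or a single one. With a term for replicates 1 and 2 against 3 to 6, large-subunit proteins had 1 call higher and 4 lower and small-subunit proteins 2 lower. Without it, no gene was called among 49 large-subunit and 34 small-subunit ribosomal proteins (medians -0.058 and -0.091, between -0.100 and -0.0042 and between -0.127 and -0.043 without single libraries, with 37 and 30 genes below 0), 77 mitochondrial ribosomal proteins (median 0.023, between -0.013 and 0.036), 24 ribosome stalling and quality control factors (median -0.15) or 14 enzymes of wobble uridine modification (median 0.042, between 0.0090 and 0.078, with Elp3 at 0.23, adjusted p = 0.324). All 13 mitochondrially encoded genes lay below 0 (median -0.24, or -0.084 without Ctu1 iKO replicate 5 and -0.376 without replicate 4) without a call, with mt-Co1 at -0.29 (adjusted p = 0.375). Of 74 nuclear-encoded respiratory chain genes 59 lay above 0 (median 0.12) and 1 rose, the complex I subunit Ndufs5 (0.46, adjusted p = 0.0187, lost without control replicate 3 at 0.0514). Of 39 proteasome subunits, the activator Psme2 rose (0.40, adjusted p = 0.0303, lost in 9 of 11 fits, at most 0.0885 without Ctu1 iKO replicate 5). Of 51 interferon-stimulated genes 47 lay above 0 (median 0.41, or 0.20 without Ctu1 iKO replicate 5), with Ifitm3 at 0.42 (adjusted p = 0.0742), but none passed (4 rose with a term for replicates 1 and 2 against 3 to 6), and the mean log2(CPM + 1) of the list overlapped between groups (2.81 to 3.73 in the controls and 3.26, 3.17, 3.50, 3.27 and 4.09 in Ctu1 iKO). No call was made among 37 MAPK and immediate early genes (Myc at -0.24, adjusted p = 0.176), 23 NF-kB and chemokine genes or 9 histones.

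RNA-seq of the same samples asked how far the footprint changes were carried by mRNA. Without the libraries labelled Ctu1 iKO replicates 4 and 5, RNA of 1530 of 10124 genes differed (15.1%), and with them 2677 of 10128 (26.4%). Of the 169 genes with increased footprints 166 had RNA changes of the same sign (98.2%) and 128 passed the test in the same direction (75.7%). Their median RNA change was 0.44, or 0.54 with all RNA libraries, beside 0.59 in all footprint libraries. The genes were picked by their footprint change, which can enlarge the footprint value. Of 106 genes with decreased footprints and RNA values, 100 had the same sign (94.3%) and 72 passed (67.9%). For 5 of the lists described above, the medians in RNA were 0.45 for the ATF4 targets, 0.22 for the lysosome, 0.44 for the annexins and S100 proteins, -0.27 for the cholesterol genes and -0.24 for the mitotic genes. The sign was the same as in footprints for these lists and not for all. Small-subunit ribosomal proteins had an RNA median of 0.081 beside -0.091 in footprints, or -0.044 in footprints without the same replicates, and large-subunit proteins 0.059 beside -0.058, or 0.020 without them. The 23 poly(A)-binding and TOP genes had an RNA median of 0.0041. With all RNA libraries these medians were 0.195 for small-subunit proteins (11 of 34 higher), 0.198 for large-subunit proteins (13 of 49 higher) and 0.032 for the TOP genes.

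**Figure D3:**
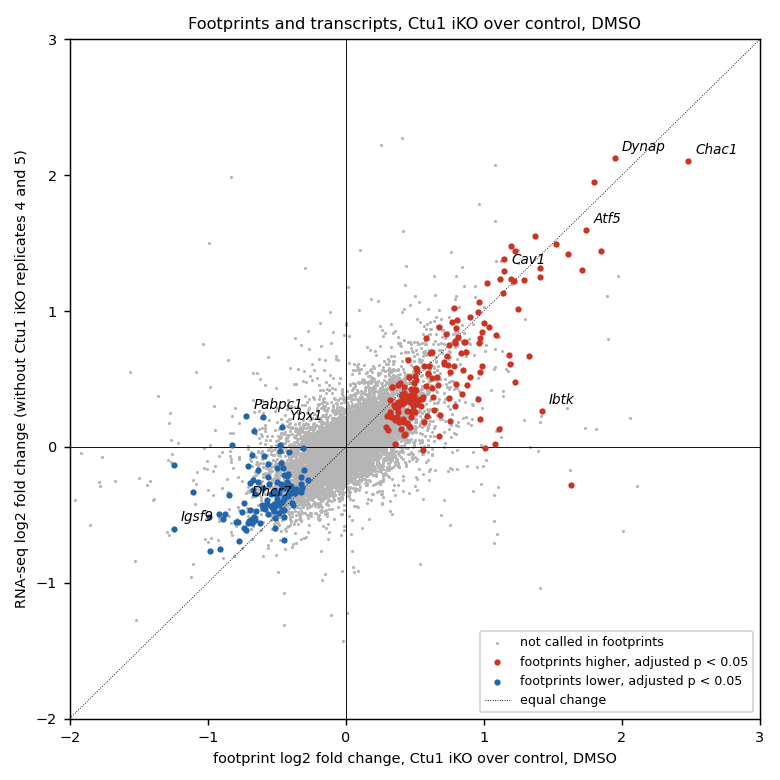
Log2 change in RNA without Ctu1 iKO replicates 4 and 5 (vertical) against log2 change in footprints (horizontal) for 10124 genes, of which 6 lie outside the axes. Coloured points are genes called in footprints, and Pabpc1 lies at a footprint change of -0.72 and an RNA change of 0.23 while Ibtk lies at 1.42 and 0.26.

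The change in footprints relative to RNA, tested as the assay-by-genotype term of 1 model, passed for 5 of 10128 genes (0.0494%) with all RNA libraries and for 3 of 10124 (0.0296%) without replicates 4 and 5. All 5 are named because there are so few, and Acta2 and Lpar1 were thus chosen after their values were seen. Ibtk was higher by 1.21 (SE 0.13, adjusted p = 1.3e-05), and by 1.03 without replicates 4 and 5 (adjusted p = 0.00234). Pabpc1 was lower, at -1.11 (SE 0.13, adjusted p = 4.2e-05) and -0.95 (adjusted p = 0.00234). Its RNA rose by 0.23 without replicates 4 and 5 (adjusted p = 0.0162) and its footprints fell. Acta2, smooth muscle actin, was lower at -1.68 (SE 0.27, adjusted p = 0.00664) and -1.94 (adjusted p = 0.0169), with an RNA change of 2.28 and a footprint change of 0.40. Ybx1 (-0.84, adjusted p = 0.0268) and the lysophosphatidic acid receptor Lpar1 (-0.61, adjusted p = 0.0378) were lower with all libraries and did not pass without replicates 4 and 5 (adjusted p = 0.196 and 0.127). For Atf4 the value was 0.61 (SE 0.17, adjusted p = 0.361).

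Footprints of cells given 300 nM torin 1 for 2 h compared Ctu1 iKO with control in separate libraries, so the contrasts share no library. There 479 of 9913 genes were called (4.83%). Of 163 genes that rose in DMSO and were listed, 162 had the same sign with torin 1 (99.4%) and 83 passed in the same direction (50.9%). Of 107 that fell, 103 had the same sign (96.3%) and 40 passed (37.4%). The medians with torin 1 were 0.29 for the ATF4 targets (9 of 32 tested there were called), 0.21 for the lysosome (5 of 45 called), 0.36 for the annexins and S100 proteins, -0.35 for the cholesterol genes (5 called) and -0.22 for the mitotic genes, beside 0.011 for all genes. For the ribosomal proteins they were -0.69 (large subunit, 41 of 49 lower) and -0.73 (small subunit, 32 of 34 lower).

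**Figure D4:**
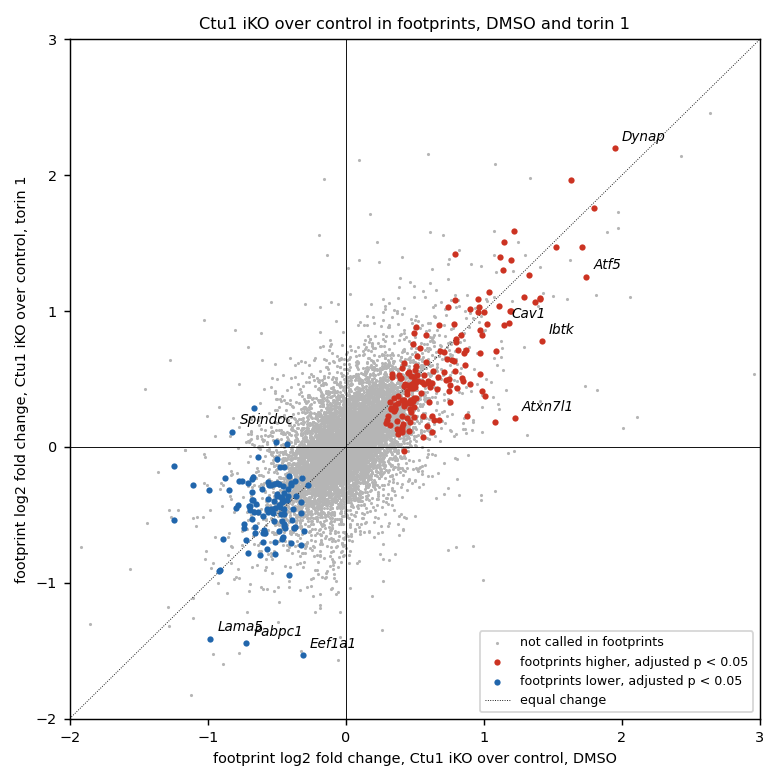
Log2 change in footprints with torin 1 (vertical) against that with DMSO (horizontal) for 9857 genes, of which 10 lie outside the axes. Most genes called with DMSO lie on the same side of 0 with torin 1, and Eef1a1 lies at -0.31 with DMSO and -1.53 with torin 1.

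Whether the genotype effect differed between treatments was tested directly by their interaction, which passed for 63 of 9857 genes (0.639%), all with a more negative change under torin 1 in this fit. Eef1a1 was among them: -0.31 with DMSO and -1.53 with torin 1 (interaction -1.22, adjusted p = 1.1e-08). For Pabpc1 the changes were -0.72 and -1.44, and the interaction did not pass (-0.72, adjusted p = 0.126). For Atf4 they were 0.99 and 0.83 (adjusted p = 1).

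Codon use of the mRNAs was related to footprints in each library as the slope of log2(CPM + 1) on the percent of a gene's codons that are of 1 kind, over 10083 genes with a coding sequence. For AAA the slope was 0.0880 ± 0.0261 (SD, n = 6) in the controls and 0.0844 ± 0.0416 (SD, n = 5) in Ctu1 iKO, a mean difference of -0.0036 (exact permutation test, two-sided, p = 0.851). For GAA it was 0.0924 ± 0.0238 and 0.0886 ± 0.0360 (difference -0.0038, exact permutation test p = 0.827), and for CAA -0.101 ± 0.0408 and -0.103 ± 0.0642 (difference -0.0014, exact permutation test p = 0.950). Libraries of both groups were high: control replicates 5 and 6 had AAA slopes of 0.132 and 0.107, Ctu1 iKO replicates 4 and 5 had 0.145 and 0.110. Control replicates 1 to 4 had 0.0804, 0.0656, 0.0750 and 0.0682, and Ctu1 iKO replicates 1 to 3 had 0.0616, 0.0521 and 0.0527. For AAA, GAA and CAA each of these 3 Ctu1 iKO libraries lay below each of these 4 controls, while the other libraries overlapped between groups. The division was not particular to these codons. It held for the serine codons TCA (-0.1018, -0.1225 and -0.0930 beside -0.0722, -0.0859, -0.0561 and -0.0630) and TCT. For the aspartate codon GAC it went the other way (0.0166, 0.0338 and 0.0180 beside -0.0027, 0.0051, 0.0005 and -0.0049). This division was seen in the slopes themselves and was not tested, and the p-values above are for all 11 libraries. Of 61 codons none passed after adjustment in this unpaired test, whose smallest possible p is 0.00216, and 1 had an unadjusted p under 0.05, GGT (difference -0.0165, exact permutation test p = 0.0238, adjusted p = 0.994). These slopes describe the number of footprints per gene and not the codon inside the ribosome, which gene counts do not hold. Genes with increased footprints held a median of 1.96% AAA codons, those with decreased footprints 2.47% and the others 2.17%. For GAA the medians were 2.69%, 3.23% and 2.75%, and for CAA 0.960%, 1.02% and 1.04%.

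**Figure D5:**
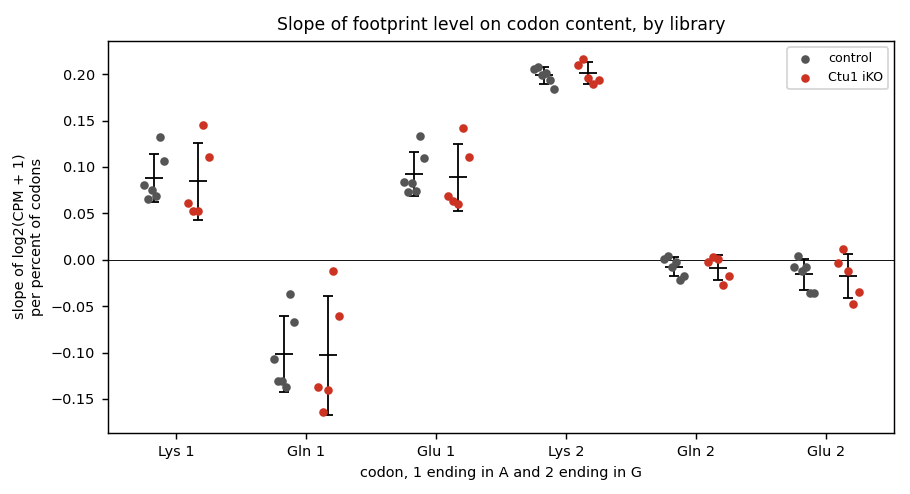
Slope of log2(CPM + 1) on the percent of a codon, 1 point per library, for the A-ending and G-ending codons of lysine, glutamine and glutamate, with controls and Ctu1 iKO side by side. The groups overlap for all 6 codons, and control replicates 5 and 6 with Ctu1 iKO replicates 4 and 5 lie highest for the A-ending ones.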

How the data were processed

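Footprint and RNA-seq values were the deposited raw counts per gene. Per the labels and the methods, the authors trimmed footprint reads with cutadapt 3.4 and handled molecular identifiers with UMI-tools 1.1.1. They removed ribosomal RNA and counted with STAR 2.5.3a. For RNA-seq the methods point to a workflow of the core facility. The labels name GRCm38 and mm10, whereas the methods name a human build for the footprint reads. The symbols are mouse ones. Here, 11 symbols on 23 entries were left out, genes averaging 10 counts or more were tested with edgeR 4.0.16 (TMM scaling, glmQLFTest, genotype only, Benjamini-Hochberg adjustment over all genes), in R 4.3.3, and single values by exact permutation. A changed gene had an adjusted p under 0.05. DESeq2 1.42.0 was an alternative, with other filters, scalings, a replicate block and leaving out each library. The scripts were tested on simulated data. Genes named are Ctu1, the 15 largest increases and decreases (mean of 100 counts or more, groups not overlapping), called list members and up to 4 highly covered members per list. A few of these are not reported here. Members and lists were chosen with earlier results of these data known.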

Additional observations from a re-analysis of the deposited data

Results flagged for a closer look

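Of 240 groups of libraries tested for a single library far from its group (Dixon's 95% limit), 6 were marked (2.5%), where chance alone marks about 1 in 20. Fbln2 stood at 68.85 CPM in control replicate 4, with the other controls at 37.4 to 45.6 CPM. Sqstm1 was lowest in control replicate 4 at 282.1 CPM, and Sat1 in control replicate 3 at 28.02 CPM. Myof was lowest in Ctu1 iKO replicate 1 at 621.2 CPM and Nedd9 in Ctu1 iKO replicate 2 at 14.72 CPM, and S100a11 was highest in Ctu1 iKO replicate 3 at 334.4 CPM. Without the library in question Fbln2 had a log2 change of 1.11 (adjusted p = 0.00195), while Sat1 (adjusted p = 0.0913) and Sqstm1 (adjusted p = 0.0687) did not pass.

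Eef1a1 was marked because its genotype effect differed between treatments, with an interaction of -1.217 on the log2 scale (adjusted p = 1.1e-08, edgeR).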

How the results depend on the processing

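For 120 genes (Ctu1 and 119 that were called) the sign held under each alternative run, and the calls did not: leaving out single libraries kept 902 of 1320 gene values on their side of the threshold and the other settings 1068 of 1320, and 58 of 119 named calls were lost in at least 1 fit without 1 library. Calls in footprints with DMSO were 277, and 144 to 285 without single libraries. DESeq2 gave 700 (all 277 among them, 9 adjusted p not given), a term for replicates 1 and 2 against 3 to 6 gave 737, replicates 3 to 6 alone 184 and replicates 1 and 2 alone 0 (edgeR, with 1067 genes at an unadjusted p under 0.05 there). Without Ctu1 iKO replicates 4 and 5, chosen after seeing the data, 222 genes were called, 143 of them shared. A minimum of 10 counts in every library gave 302. In RNA-seq 1530 genes were called without replicates 4 and 5. For footprints relative to RNA the count was 3 to 5 without single libraries and 3 without Ctu1 iKO replicates 4 and 5. With torin 1, DESeq2 called 842 genes and single libraries left out gave 301 to 572. The cause of these shifts was not tested. The difference in Ctu1 footprints was -0.812 CPM after TMM scaling (exact permutation test p = 0.0454) and -0.934 to -0.563 CPM without single libraries. In RNA-seq it was -0.816 to -0.350 CPM. Same-numbered libraries correlated at 0.398, 0.451, 0.270, -0.0942 and 0.253 in their deviations from the group means, and Ctu1 iKO replicates 3, 4 and 5 correlated best with control replicates 4, 5 and 6, so the numbers were not taken as pairs. With a replicate block 361 genes were called in footprints with DMSO (218 shared), 1425 with torin 1, 139 for the interaction (6 of them more positive) and 5 relative to RNA. The codon slope differences changed sign: the block gave 0.000186 for AAA and 0.00547 for CAA, a pseudocount of 0.1 gave 0.000724 for CAA, and leaving out single libraries gave -0.0188 to 0.00516 for AAA, -0.0242 to 0.0139 for CAA and -0.0171 to 0.00431 for GAA. Of 1166 list medians 10 moved beyond their spread, 7 of them without Ctu1 iKO replicates 4 and 5, and 3 of the 10 changed sign: NF-kB genes (0.078) and growth factor receptors (0.15) without those replicates, and epithelial genes (-0.084) in replicates 3 to 6 alone. Depth limits thinly covered genes such as Ctu1 and Chac1, and 82 genes had no footprint in Ctu1 iKO replicate 1.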

Other observations

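The following genes lie outside the lists, except Ahnak, were chosen after their values were seen and support no program. Aldh1l2, a mitochondrial folate enzyme, stood at 12.99 to 31.5 CPM in the controls and at 72.6, 60.01, 48.7, 46.9 and 40.7 CPM in Ctu1 iKO (log2 change 1.14, SE 0.23, adjusted p = 0.0198). Ifrd1, whose mRNA carries an upstream reading frame, stood at 121 to 162 CPM and at 183, 211, 242, 311 and 283 CPM (log2 change 0.79, SE 0.13, adjusted p = 0.00817), with an RNA change of 0.30. Lamtor4, a subunit of the Ragulator complex that anchors mTORC1, rose by 0.66 (adjusted p = 0.0365), and Fnip1, a folliculin partner, by 0.75 (adjusted p = 0.0427), and each was lost in 7 and 9 of 11 fits without 1 library. Tmsb4x, which binds actin monomers and has several copies in the genome, rose by 0.75 (SE 0.14, adjusted p = 0.0135).

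Pa2g4, a growth-linked nucleolar protein, stood at 550 to 677 CPM in the controls and at 400, 451, 417, 461 and 456 CPM in Ctu1 iKO (log2 change -0.49, SE 0.08, adjusted p = 0.00628). All 3 Cdc25 phosphatases, which activate the cyclin-dependent kinases, had fewer footprints. Cdc25a fell by 0.47 (adjusted p = 0.0407), Cdc25b by 0.47 (adjusted p = 0.0306) and Cdc25c by 0.56 (adjusted p = 0.0348), and they were lost in 9, 7 and 7 of 11 fits. Their RNA changes without Ctu1 iKO replicates 4 and 5 were -0.28, -0.03 and -0.12. The difference of footprint and RNA change did not pass the test for any of them.

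Ahnak, a member of the list of annexins and S100 proteins, had footprints that ran from 253 CPM in Ctu1 iKO replicate 3 to 1384 CPM in replicate 1, and from 366 to 1619 CPM in the controls.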
